A study of Rattus norvegicus with 16 samples.

Results

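The genes of the circadian clock were followed in rat hepatoma H35 cells in which Pdrg1 had been silenced. The members were chosen by name as 10 core clock and output genes, Arntl, Clock, Per1, Per2, Per3, Cry1, Cry2, Nr1d1, Nr1d2 and Dbp. They were read by 16 of the 30367 probes of the array and make up 10 of its 26269 gene names. RefSeq now lists Arntl as Bmal1. H35 is an established line of rat liver tumour cells, and it was grown here in DMEM with 10% fetal bovine serum and 2 mM glutamine.

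The cells formed 4 groups of 4 biological replicates, each replicate read on its own one-color array. CN-10 is a stable clone carrying a plasmid with a negative control shRNA. The stable clone 4-18 carries shRNA4 and the stable clone 3-44 carries shRNA3, both directed against Pdrg1. These clones were selected with up to 4 mg/ml of the antibiotic G418, and each of the 3 is a single clone. The fourth group, shRNA3T, is a pool of cells transfected with the shRNA3 plasmid and enriched for transfected cells by 2 weeks of selection, with G418 at 1.8 mg/ml. Its comparator CN-10 was selected further and is a clone, so silencing, selection and clonal origin cannot be told apart in that comparison. For 4-18 and 3-44 a single clone is set against a single control clone, so silencing and clonal origin cannot be told apart there either. The replicates of a clone do not measure the spread between clones. A synchronising treatment and a collection time are not given in the sources used here. All values come from 1 time per culture, so the phase of a rhythm and its mean level cannot be told apart, nor can fewer expressing cells and less RNA per cell.

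The mammalian clock is a feedback loop of transcription. The proteins of Clock and Arntl bind E-box sequences and switch on the Per, Cry, Nr1d1, Nr1d2 and Dbp genes. PER and CRY proteins then repress CLOCK and BMAL1, while the REV-ERB receptors made from Nr1d1 and Nr1d2 repress Arntl through RORE sequences. DBP, a bZIP factor, passes the rhythm to liver genes through D-box sequences. In liver, Dbp and Nr1d1 are among the transcripts with the widest daily swing, and they normally peak in a phase opposite to that of Arntl. Serum and glucocorticoids can reset the clocks of cultured cells.

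One gene of the 10, Dbp, was at least 2-fold higher in every silenced group than in CN-10. Its level was 2.85-fold higher in 4-18, 2.00-fold higher in 3-44 and 2.26-fold higher in shRNA3T. Nr1d1 rose in 4-18 (1.99-fold) and in shRNA3T (1.74-fold) but was 1.03-fold of CN-10 in 3-44, where it did not pass the test. Cry1 fell in 4-18 (1.86-fold lower), and Cry2 fell by a small amount in 3-44 (1.27-fold lower) and in shRNA3T (1.29-fold lower). Arntl, Clock, Per1, Per2, Per3 and Nr1d2 did not pass the test against CN-10 in any silenced group on their brightest probes, while a dimmer probe of Per3 passed in 4-18.

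These values are log2 intensities of the brightest probe of each gene after quantile normalization. A gene passed the test at a Benjamini-Hochberg adjusted p under 0.05 in limma, adjusted over all probes, and was called where it also differed by at least 2-fold. In 4-18 1 of the 10 members was called, against 6.15% of all genes, and 3 passed, against 24.1%. In 3-44 1 was called, against 1.47% of all genes, and 2 passed, against 8.14%. In shRNA3T 1 was called, against 2.39%, and 3 passed, against 12.2%. A single gene is 10% of the members, so these counts say nothing about the list as a whole, and the results below concern single genes. The median log2 fold change over the members was -0.10 in 4-18, 0.02 in 3-44 and 0.24 in shRNA3T, beside 0.00, -0.01 and -0.01 over all genes. The 3 comparisons share the CN-10 arrays.

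**Figure D1:**
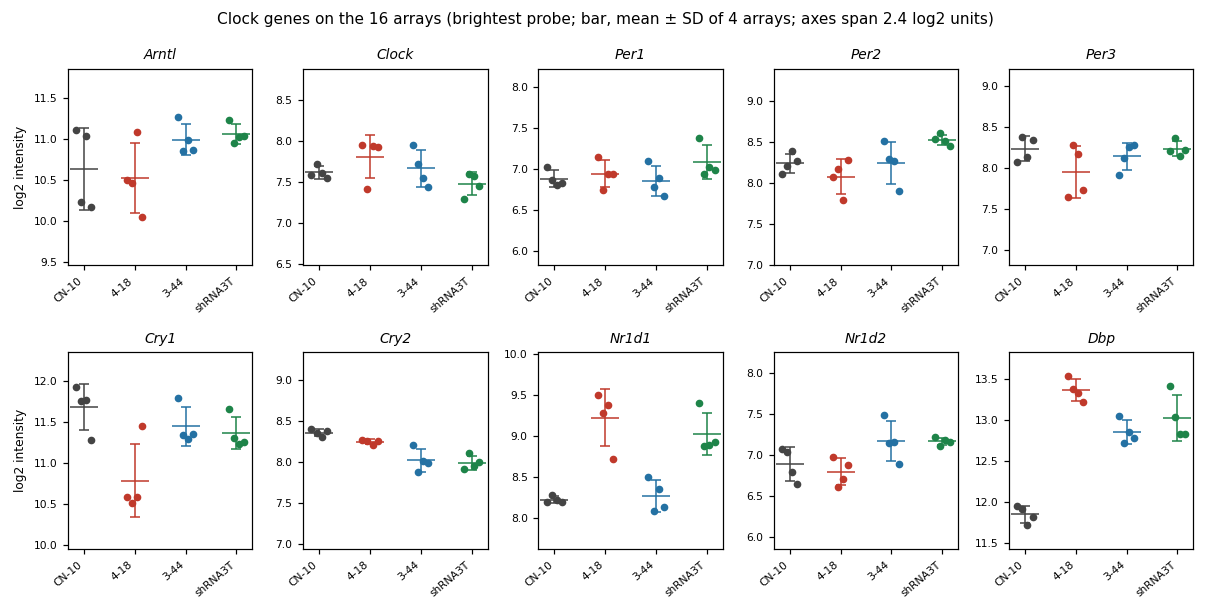
The log2 intensity of each member on every array (points, 4 per group) with the group mean and SD (bars), each panel spanning 2.4 log2 units. The Dbp panel shows all 12 silenced arrays above the 4 CN-10 arrays, and the Nr1d1 panel shows 4-18 and shRNA3T above CN-10 while 3-44 overlaps it.

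Pdrg1, the gene targeted by the shRNAs, was lower on every silenced array than on every CN-10 array. Its log2 intensity ran from 13.41 to 13.88 in the control clone. It ran from 11.57 to 13.34 in 4-18, from 11.89 to 12.95 in 3-44 and from 12.39 to 12.97 in shRNA3T. Replicate 1 was the lowest array of every group. In 4-18 the other arrays read 13.25 to 13.34, close to the control, so the mean difference there leans on replicate 1. The differences of -0.77, -0.99 and -0.85 did not pass after adjustment over all probes by limma (adjusted p 0.129, 0.105 and 0.143). Because a slide never held arrays of more than 1 group, differences between slides cannot be told apart from differences between groups. The 4-18 arrays were the dimmest, with 53.1% to 64.1% of spots well above background, against 64.7% to 74.3% on the other arrays, and their slide was scanned on a separate day. The hepatocyte markers Alb, Ttr, Apob, Serpina1, Fgb and Tf were well above background on all 16 arrays, and Apoa1 and Hnf4a on 15. Their summed intensity, over the spots not set aside on an array, ranged from 200683 to 432343 for the CN-10 arrays, from 270994 to 433850 for 4-18, from 193279 to 708278 for 3-44 and from 350392 to 597838 for shRNA3T. These sums do not cover the same markers on every array, since among others Tf had no value on 3-44 replicate 1 and Apob none on CN-10 replicates 1 and 4. Single hepatocyte markers differed from the control, with 1 called higher and 3 lower in 4-18, 2 higher in 3-44 and 3 higher in shRNA3T. Over all genes 6.15%, 1.47% and 2.39% were called in the same order. The part of these markers in the results for the clock genes was not tested. For 13 markers of leukocytes, endothelium, stellate cells and cholangiocytes the summed intensity ranged from 1969 to 2131 in CN-10, 1657 to 1827 in 4-18, 1835 to 2056 in 3-44 and 1906 to 2010 in shRNA3T. Of these markers, by the adjusted p of limma, Des fell in all 3 silenced groups (-1.17, past 2-fold, in 4-18, then -0.81 and -0.98), as did Krt19 (-0.33, -0.54 and -0.52), Cd68 and Acta2 fell in 4-18 and Col1a1 rose in shRNA3T, and their part in the results was not tested. Ptprc (leukocytes) and Pecam1 (endothelium) were well above background on no array, while Cdh5 and Col1a1 were so on all 16, Cd68, Des, Acta2 and Sox9 on 15, Adgre1 on 12, Col3a1 on 7, Kdr on 6, Krt19 on 4 and Krt7 on 2.

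The sequences just upstream of Dbp, Nr1d1 and Cry2, which differed from the control, show which clock elements lie close to their starts. They are the 250 bases before the first annotated RefSeq start in build GRCr8, 5′ to 3′ on the strand of the gene, with matches to the searched elements in capitals, read on either strand (the E′-box CACGTT reads AACGTG on the other). Per2 and Arntl are shown with them because they hold the D-box and the RORE of the set. RefSeq promoters were matched for 9 of the 10 members, all but Cry1.
Dbp promoter, chr1:105312006-105312255 (plus strand): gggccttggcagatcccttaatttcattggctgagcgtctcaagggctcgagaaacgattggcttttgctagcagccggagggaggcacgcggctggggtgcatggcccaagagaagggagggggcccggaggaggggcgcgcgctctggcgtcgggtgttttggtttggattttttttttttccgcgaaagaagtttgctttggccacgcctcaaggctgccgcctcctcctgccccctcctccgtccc
Nr1d1 promoter, chr10:84231813-84232062 (minus strand): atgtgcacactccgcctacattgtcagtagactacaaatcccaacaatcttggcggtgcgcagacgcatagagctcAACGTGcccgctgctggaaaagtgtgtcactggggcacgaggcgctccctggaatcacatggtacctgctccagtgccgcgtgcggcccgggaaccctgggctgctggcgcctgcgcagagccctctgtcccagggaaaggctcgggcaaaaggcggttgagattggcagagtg
Cry2 promoter, chr3:98860438-98860687 (minus strand): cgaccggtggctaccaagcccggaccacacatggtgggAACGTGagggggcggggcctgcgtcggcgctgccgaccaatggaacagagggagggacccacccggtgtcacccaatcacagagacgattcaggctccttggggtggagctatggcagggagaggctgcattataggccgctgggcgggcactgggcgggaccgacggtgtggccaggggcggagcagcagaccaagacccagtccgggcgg
Per2 promoter, chr9:99496994-99497243 (minus strand): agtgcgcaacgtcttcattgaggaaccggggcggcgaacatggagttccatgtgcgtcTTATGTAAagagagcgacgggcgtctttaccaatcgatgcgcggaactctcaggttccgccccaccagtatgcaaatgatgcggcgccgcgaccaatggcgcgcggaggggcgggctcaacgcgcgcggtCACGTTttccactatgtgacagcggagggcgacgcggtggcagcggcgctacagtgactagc
Arntl promoter, chr1:176766078-176766327 (plus strand): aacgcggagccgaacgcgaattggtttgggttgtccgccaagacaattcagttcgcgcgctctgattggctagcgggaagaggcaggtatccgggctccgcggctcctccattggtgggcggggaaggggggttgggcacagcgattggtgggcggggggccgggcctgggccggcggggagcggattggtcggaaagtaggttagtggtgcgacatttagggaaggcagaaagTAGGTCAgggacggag

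Both strands were searched for the E-box CACGTG, the related E′-box CACGTT, the D-box TTANGTAA and the RORE elements TAGGTCA and TGGGTCA. E-box and E′-box differ in their last base, so no match was counted for both. The E′-box was found for Per2, where it begins 62 bases before the start, for Nr1d1 (174 bases before) and for Cry2 (212 bases before). It occurs in 4.07% of the 33469 promoters of the same length. The D-box was found for Per2 (192 bases before the start) and occurs in 2.04% of promoters. TAGGTCA was found for Arntl, 16 bases before the start, and occurs in 2.26%, while TGGGTCA (3.44%) was found for no member. An E-box (5.59% of promoters) was found 191 bases before a second annotated start of Nr1d1. None of these letters occurs in the Dbp window. These are matches of letters, and binding was not measured.

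Dbp, the output factor, was read by 3 probes on chromosome 1 (rn4 build, plus strand), the brightest at chr1:96178423-96178482. Its log2 intensity was 11.96, 11.91, 11.72 and 11.82 on the CN-10 arrays. It was 13.54, 13.38, 13.33 and 13.22 in 4-18. It was 13.05, 12.72, 12.86 and 12.78 in 3-44, and 13.42, 13.03, 12.83 and 12.83 in shRNA3T. The lowest silenced array, at 12.72, lay above the highest control array, at 11.96, so the groups did not overlap (exact permutation p = 0.0286 in each comparison, two-sided, the smallest that 4 arrays against 4 allow).

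The log2 fold change of Dbp was 1.51 ± 0.12 (SE, n = 4 against 4) in 4-18, 1.00 ± 0.12 in 3-44 and 1.18 ± 0.12 in shRNA3T. All 3 passed in limma (adjusted p 5.06e-07, 0.000117 and 1.64e-05). By size of the increase Dbp ranked 183rd of 26269 genes in 4-18, 203rd of 26268 in 3-44 and 178th of 26269 in shRNA3T. The value in 3-44 lies on the 2-fold limit, so the call there was lost at 0.94 without 3-44 replicate 1, at 0.96 without CN-10 replicate 3 and at 0.99 without CN-10 replicate 4, each time still past the adjusted p. In the deposited table, whose values were not scaled between arrays, the Dbp difference was 0.78 in 4-18 (adjusted p 0.0208) and 0.90 in 3-44 (adjusted p 0.0716).

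The other probes of Dbp lie upstream on the same gene, at chr1:96178148-96178207 and chr1:96178064-96178123. The second probe gave log2 fold changes of 1.80, 1.54 and 1.57 in 4-18, 3-44 and shRNA3T, and the third gave 1.49, 1.02 and 1.88. Both were called higher in all 3 silenced groups. On the third probe the arrays of 3-44 overlapped those of CN-10, since its replicate 3 read 9.38, the same as CN-10 replicate 4. The sequence of the silenced groups was not the same on the 3 probes, with 4-18 highest on the first and second and shRNA3T highest on the third.

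**Figure D2:**
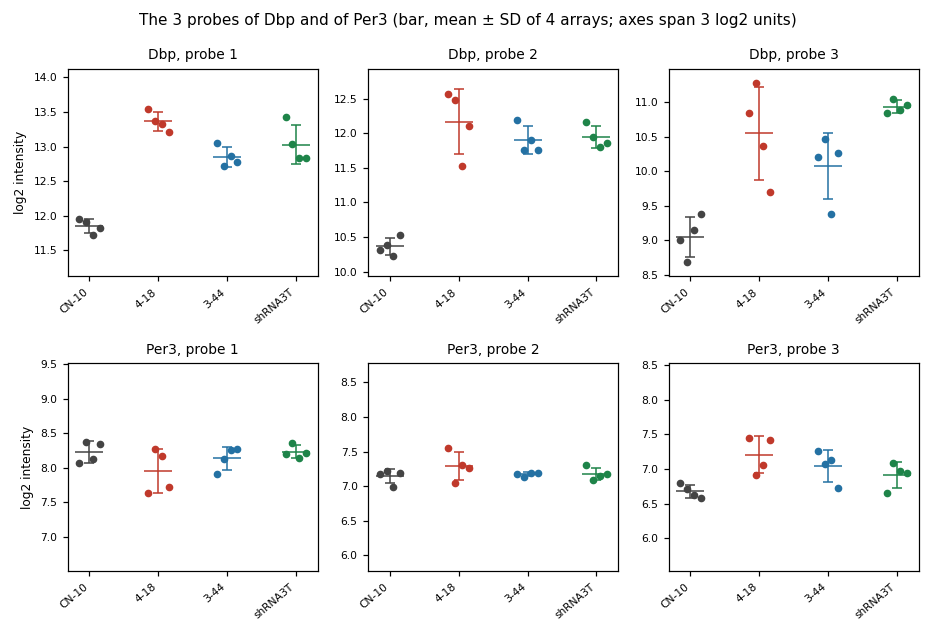
The log2 intensity of the 3 probes of Dbp (upper row) and of Per3 (lower row) on every array, with the group mean and SD, each panel spanning 3 log2 units. All 3 Dbp probes are higher in the silenced groups, while the Per3 probes move in different directions in 4-18.

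Nr1d1 encodes REV-ERBα, the nuclear receptor that represses Arntl. Its 1 probe lies on chromosome 10 (rn4 minus strand), where its 60 bases span 355 bases of the genome, from 87543165 to 87543519. The log2 intensity was 8.20, 8.29, 8.23 and 8.20 in CN-10. It was 9.51, 9.28, 9.39 and 8.72 in 4-18, 8.51, 8.09, 8.36 and 8.13 in 3-44, and 9.41, 8.88, 8.89 and 8.93 in shRNA3T. All arrays of 4-18 and shRNA3T were above those of CN-10, while 3-44 lay around them.

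The log2 fold change of Nr1d1 was 1.00 ± 0.16 in 4-18 (SE, adjusted p 0.000294 in limma) and 0.80 ± 0.16 in shRNA3T (adjusted p 0.00355). In 3-44 it was 0.04, with a 95% interval from -0.30 to 0.38 (adjusted p 0.926). The change in 4-18 stayed just under the 2-fold limit and rose to 1.16 without 4-18 replicate 4, the lowest of its group. In the deposited unscaled table it was 0.59 and did not pass (adjusted p 0.0625). Tested directly, 3-44 was lower than 4-18 by 0.95 (adjusted p 0.000478) and lower than shRNA3T by 0.75 (adjusted p 0.00626), with no overlap of arrays in either pair. 3-44 and shRNA3T carry the same shRNA plasmid.

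Nr1d2, which encodes the related receptor REV-ERBβ, had group means of 6.89 for CN-10, 6.80 for 4-18, 7.17 for 3-44 and 7.17 for shRNA3T. None of the differences from CN-10 (-0.10, 0.28 and 0.28) passed in limma (adjusted p 0.658, 0.227 and 0.195), although all arrays of shRNA3T were above those of CN-10. Between the silenced groups it was lower in 4-18 than in 3-44 by 0.38 (adjusted p 0.0426) and than in shRNA3T by 0.37 (adjusted p 0.0476). Neither difference passed under any of the 4 other scalings, where the adjusted p ran from 0.0514 to 0.879 against 3-44 and from 0.0518 to 0.876 against shRNA3T, with differences of -0.08 in both in the deposited unscaled table. The probe was well above background on 3 of the 4 arrays of 4-18 and on all others.

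Cry1 and Cry2 encode the cryptochromes, the repressors that bind CLOCK and BMAL1. Cry1, read by a probe at chr7:20708985-20709044 (plus strand), had log2 intensities of 11.93, 11.75, 11.76 and 11.28 in CN-10. They were 10.59, 10.51, 10.59 and 11.46 in 4-18, where replicate 4 stood apart from the others and inside the range of the control. In 3-44 they were 11.80, 11.34, 11.29 and 11.35, and in shRNA3T 11.66, 11.31, 11.23 and 11.26.

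Cry1 fell by 0.90 ± 0.20 on the log2 scale in 4-18 (SE, adjusted p 0.00423 in limma; exact permutation p = 0.0571). Without 4-18 replicate 4 the difference was -1.12, past the 2-fold limit (adjusted p 0.000151). The differences of -0.24 in 3-44 and -0.32 in shRNA3T did not pass (adjusted p 0.597 and 0.407). Cry1 was lower in 4-18 than in 3-44 by 0.66 (adjusted p 0.0282), and its difference of -0.58 from shRNA3T did not pass (adjusted p 0.0563). The latter passed in 6 of 26 alternatives, among them cyclic loess (-0.66, adjusted p 0.0164), the deposited table (-1.33, adjusted p 0.00321), dim probes left out (adjusted p 0.037) and 4-18 replicate 4 left out (-0.80, adjusted p 0.00239). The difference between 4-18 and 3-44 did not pass with the processed signals (-0.33 and -0.32, adjusted p 0.127 and 0.142), with array weights (-0.48, adjusted p 0.0707) or with the arrays of the comparison alone (adjusted p 0.0863). The Cry1 decrease in 4-18 against CN-10 kept its sign under all 4 other scalings of the arrays, with values from -1.65 in the deposited unscaled table to -0.60 in quantile-normalized processed signals.

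Cry2 was read by a probe at chr3:76802802-76802861 (minus strand). Its log2 intensities were 8.40, 8.36, 8.31 and 8.39 on the control arrays and 8.27, 8.26, 8.21 and 8.26 in 4-18. They were 8.21, 7.88, 8.02 and 7.996 in 3-44, and 7.92, 8.11, 7.95 and 8.003 in shRNA3T. Every silenced array was below every CN-10 array. The decrease was 0.34 ± 0.07 in 3-44 (SE, adjusted p 0.00867 in limma) and 0.37 ± 0.07 in shRNA3T (adjusted p 0.00323), and the difference of -0.11 in 4-18 did not pass (adjusted p 0.314). The 4 other scalings kept the sign of Cry2 in both groups. The adjusted p rose to 0.0696 in 3-44 and 0.143 in shRNA3T with quantile-normalized processed signals, and to 0.797 and 0.861 in the deposited unscaled table, and in shRNA3T also to 0.097 with processed signals scaled to the 75th percentile, so that the decrease passed there under 1 of the 4 other scalings.

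**Figure D3:**
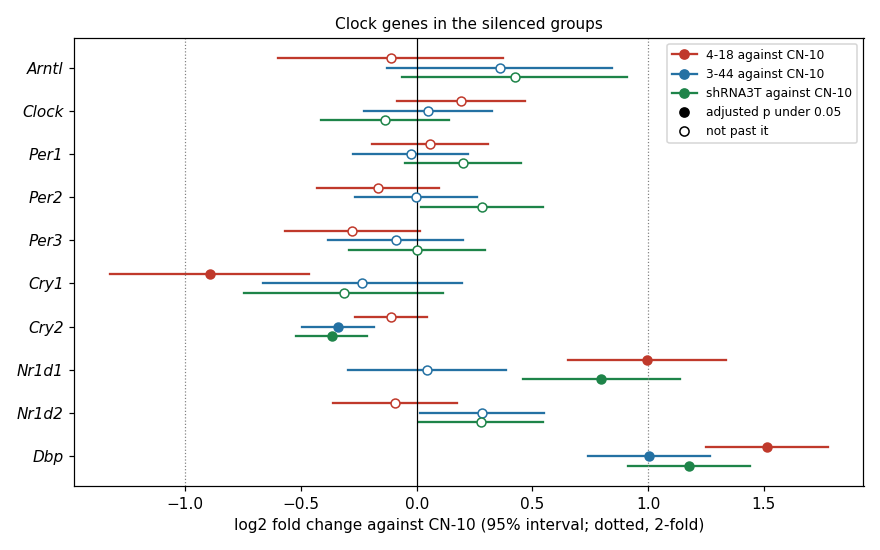
The log2 fold change of each member against CN-10 (points, one per silenced group) with its 95% interval from limma (lines). Filled points passed at an adjusted p under 0.05, and dotted lines mark a 2-fold change. Dbp lies at 1.51, 1.00 and 1.18, and Cry1 in 4-18 lies at -0.90.

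The Per genes encode the period proteins, the partners of the cryptochromes in repression. Per1 stayed between 6.67 and 7.39 on all arrays, with differences from CN-10 of 0.06, -0.03 and 0.20 in 4-18, 3-44 and shRNA3T. Per2, an average over 10 spots of 1 probe, ranged from 8.11 to 8.38 on the control arrays, from 7.79 to 8.28 in 4-18, from 7.90 to 8.51 in 3-44 and from 8.45 to 8.60 in shRNA3T. All arrays of shRNA3T were above CN-10, but the difference of 0.28 did not pass in limma (adjusted p 0.181). It passed with processed signals scaled to the 75th percentile (0.44, adjusted p 0.0437), with array weights (0.25, adjusted p 0.0417) and with the arrays of the comparison alone (adjusted p 0.0323). Between the silenced groups Per2 was lower in 4-18 than in shRNA3T by 0.45 (adjusted p 0.0172).

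Per3 was read by 3 probes, of which 2 lie end to end on chromosome 5 (minus strand), at chr5:168152779-168152838 and chr5:168152839-168152898. The first, the brightest, gave -0.28 in 4-18 (adjusted p 0.170) with a range from 7.64 to 8.28 against 8.07 to 8.38 in CN-10. Without 4-18 replicate 2 it was -0.39 and passed (adjusted p 0.0469). Its differences in 3-44 and shRNA3T were -0.09 and 0.00. The adjacent probe gave 0.53 (adjusted p 0.0108 in limma), with 6.92 to 7.45 in 4-18 against 6.58 to 6.80 in CN-10. The remaining probe gave 0.15 (adjusted p 0.289). The adjacent probe was well above background on 3 of the 4 arrays of CN-10 and of 4-18, and the brightest on all 16, so the direction of Per3 in 4-18 differs by probe.

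The activators Arntl and Clock gave no difference past the test. Arntl encodes BMAL1, and its log2 intensity ran from 10.17 to 11.11 for the control, from 10.05 to 11.08 for 4-18, from 10.86 to 11.27 for 3-44 and from 10.95 to 11.23 for shRNA3T. Its arrays in CN-10 fell into 11.11 and 11.04 for replicates 1 and 3 and 10.24 and 10.17 for replicates 2 and 4, the widest spread of any member within the control (SD 0.50). The differences from CN-10 were -0.11 in 4-18 (95% interval from -0.60 to 0.37), 0.36 in 3-44 and 0.42 in shRNA3T. The second Arntl probe gave 0.20, 0.64 and 0.31, and in 3-44 all its arrays were above CN-10 (adjusted p 0.0834 in limma). Both scalings that start from the processed signals turned the sign of Arntl in 4-18, to 0.32 and 0.34.

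Clock, the partner of BMAL1 and itself a histone acetyltransferase, ranged from 7.30 to 7.95 over all arrays. Its differences from CN-10 were 0.19 in 4-18 (95% interval from -0.08 to 0.47), 0.05 in 3-44 and -0.14 in shRNA3T. Without 4-18 replicate 2, the lowest of its group, the difference in 4-18 was 0.32 and passed (adjusted p 0.0466). The second probe gave 0.10, 0.07 and -0.01.

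The range between the highest and the lowest group mean orders the members by how much they varied. It was 1.51 for Dbp, 1.00 for Nr1d1, 0.90 for Cry1, 0.54 for Arntl, 0.45 for Per2, 0.38 for Nr1d2, 0.37 for Cry2, 0.33 for Clock, 0.28 for Per3 and 0.23 for Per1. Neighbours in this order were not tested against each other.

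Compared with each other, the silenced groups had no member past the 2-fold call of limma, while 4.98% of all genes were called for 4-18 against 3-44, 4.56% for 4-18 against shRNA3T and 2.12% for the clone 3-44 against shRNA3T. By the adjusted p alone, 5 members passed between 4-18 and 3-44 (Dbp, Nr1d1 and Cry2 higher and Cry1 and Nr1d2 lower in 4-18), against 22.5% of all genes. Between 4-18 and shRNA3T 3 passed (Cry2 higher, Per2 and Nr1d2 lower in 4-18), against 20.5%. Between 3-44 and shRNA3T Nr1d1 alone passed among the members by limma, against 10.9%. Per2, lower in 3-44, also passed there with the processed signals (-0.58 and -0.54, adjusted p 0.0132 and 0.0415), with outlier spots kept (-0.36, adjusted p 0.026) and with array weights (-0.26, adjusted p 0.0235). At an unadjusted p under 0.05 there were 5, 7 and 2 members. When each of the 16 arrays was left out in turn, the differences of Nr1d1 and Dbp passed all 16 times. Cry1 passed 12 times and Cry2 10 times between 4-18 and 3-44, and between 4-18 and shRNA3T Per2 passed 15 times and Cry2 14 times. Nr1d2 passed 6 times against 3-44 and 5 times against shRNA3T. Dbp was higher in 4-18 than in 3-44 by 0.51 on its brightest probe (adjusted p 0.00758), but by 0.26 and 0.47 on the others, which did not pass (adjusted p 0.348 and 0.275), and the deposited unscaled table turned its sign to -0.12. It did not pass with the processed signals (adjusted p 0.375 and 0.425). Cry2 did not pass with the processed signals or the deposited table either, with adjusted p from 0.0518 to 0.797 against 3-44 and from 0.158 to 0.996 against shRNA3T, and Per2 did not pass with the deposited table (adjusted p 0.163). Nr1d1 passed under all 4 other scalings in both of its comparisons.

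**Figure D4:**
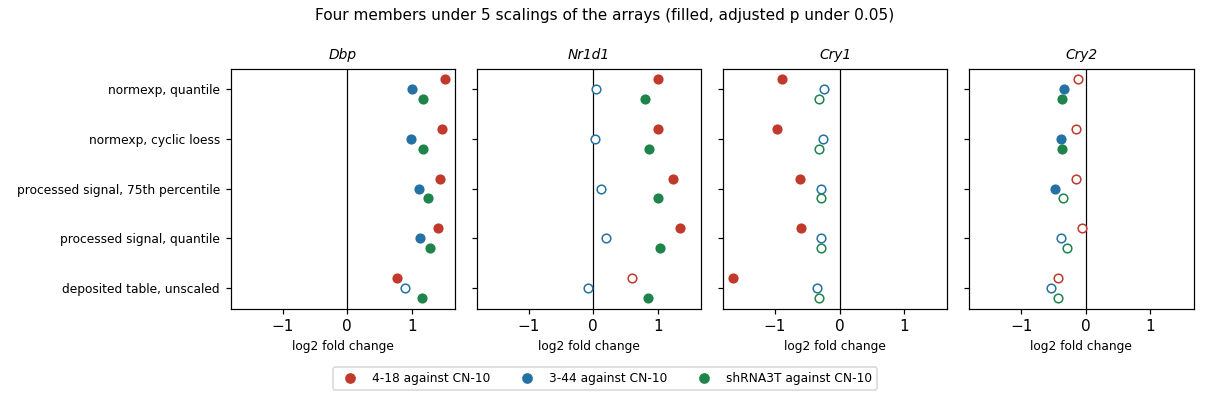
The log2 fold changes of Dbp, Nr1d1, Cry1 and Cry2 against CN-10 under 5 ways of correcting and scaling the arrays (rows), with 1 point per silenced group, filled where the adjusted p is under 0.05. Dbp stays above 0 throughout, from 0.78 to 1.51 in 4-18, and Cry1 in 4-18 stays below 0, from -1.65 to -0.60.

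Around the members, lists of related genes were read in the same fit. Of 10 further feedback regulators, 8 were on the array. In 4-18 1 was called higher and 1 lower, where 6.15% of all genes were called. Bhlhe40, a repressor of E-box transcription also known as DEC1, rose by 1.26 (adjusted p 0.0129 in limma), though its replicate 4 read 8.40, within the CN-10 range of 8.28 to 8.69. Npas2, the paralog of Clock, fell by 1.15 (adjusted p 0.0451), with replicate 2 at 8.78 within the CN-10 range of 8.11 to 9.20. The call for Npas2 was lost under cyclic loess (adjusted p 0.0845) and with the deposited unscaled table (adjusted p 0.105), and that for Bhlhe40 with the deposited table, where it was 0.88 (adjusted p 0.0479). By the adjusted p alone 3 more fell in 4-18, Arntl2, Rora and Timeless, which are named because the count is small, after their values were seen. In the deposited table Arntl2 and Rora did not pass (adjusted p 0.448 and 0.0567), and Rora also did not with quantile-normalized processed signals (adjusted p 0.0597). None of the 8 passed in 3-44 by limma (3 at an unadjusted p under 0.05), and 1, Timeless, fell in shRNA3T (4 at an unadjusted p under 0.05), though not with the deposited table (adjusted p 0.129). All arrays of 3-44 and shRNA3T lay below those of CN-10 for Arntl2, with differences of -0.38 and -0.34 (adjusted p 0.0576 and 0.0716). Under the other scalings except the deposited table Arntl2 passed in both, with adjusted p from 0.0114 to 0.0227 in 3-44 and from 0.00771 to 0.0122 in shRNA3T. Rora rose in shRNA3T with cyclic loess alone (adjusted p 0.041). Over all genes 24.1% passed in 4-18, 8.14% in 3-44 and 12.2% in shRNA3T.

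Of 8 output genes and bZIP factors, all on the array, Tef was called. Tef encodes a bZIP factor of the same PAR family as DBP. Its log2 intensity was 10.42, 9.90, 9.81 and 9.53 on the control arrays, 11.52, 11.65, 11.33 and 11.52 in 4-18, 10.68, 10.39, 10.36 and 10.52 in 3-44, and 11.13, 10.95, 11.22 and 11.09 in shRNA3T. All arrays of 4-18 and shRNA3T were above CN-10, and those of 3-44 overlapped its highest array. Tef rose by 1.59 in 4-18 (adjusted p 1.89e-06 in limma), by 0.58 in 3-44 (adjusted p 0.0265, under 2-fold) and by 1.18 in shRNA3T (adjusted p 7.69e-05). In the deposited unscaled table Tef was at 0.92 in 4-18, under 2-fold (adjusted p 0.00834), and did not pass in 3-44 (adjusted p 0.669). The probe of Hlf, the remaining PAR factor and named after its values were seen, was well above background on 1 array of CN-10, 1 of 4-18, 0 of 3-44 and 2 of shRNA3T, and no difference is given for it. Of the 8 genes 2 rose and 1 fell in 4-18 by the adjusted p, which 24.1% of all genes passed, 3 rose in 3-44 (8.14% of all genes), and 3 rose and 1 fell in shRNA3T (12.2%), with median log2 fold changes of -0.08, 0.29 and 0.28. The deposited unscaled table gave other counts, with 1 higher and 4 lower in 4-18, 0 in 3-44 and 1 higher in shRNA3T. Alas1, named after its values were seen, rose by under 2-fold in the main fit. Its values were 0.84 in 4-18, 0.54 in 3-44 and 0.98 in shRNA3T (adjusted p 0.000501, 0.0318 and 0.000305 in limma). It was past 2-fold in 4-18 with both treatments of the processed signals (1.17 and 1.11) and in shRNA3T with quantile-normalized processed signals (1.06). In the deposited unscaled table Alas1 was at 0.14 in 4-18 and passed in no silenced group (adjusted p 0.649, 0.79 and 0.0503).

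Of 8 genes for kinases and ubiquitin ligase adaptors that modify clock proteins, 7 were on the array and none was called against CN-10 by limma, beside 6.15%, 1.47% and 2.39% of all genes in 4-18, 3-44 and shRNA3T. In 4-18 Csnk1d, a casein kinase that phosphorylates PER proteins, rose by 0.89 (adjusted p 0.00874), and it is named after its values were seen. It was past 2-fold with processed signals scaled to the 75th percentile (1.02, adjusted p 0.00183), while in the deposited unscaled table it was at 0.24 and did not pass (adjusted p 0.559). None passed in 3-44 or shRNA3T by limma, where 1 and 0 genes had an unadjusted p under 0.05, and under the other scalings 0 to 1 passed in each.

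Genes that answer to glucocorticoids and serum, signals that can reset cultured clocks, were read as a list of 8. In 4-18 3 were called lower, where 6.15% of all genes were called. These were Sgk1 by 1.99 (a serum- and glucocorticoid-regulated kinase, adjusted p 0.000335 in limma), Tsc22d3 by 1.39 (GILZ, adjusted p 0.000687) and Fkbp5 by 1.11 (a co-chaperone of the glucocorticoid receptor, adjusted p 1.23e-05). All arrays of 4-18 were below all arrays of CN-10 for each of the 3. Fkbp5 fell under all 4 other scalings too, but by less than 2-fold from the processed signals (-0.87 and -0.84). In shRNA3T, where 2.39% of all genes were called, Sgk1 was called lower (-1.14, adjusted p 0.0312). This call was lost with the deposited unscaled table (adjusted p 0.242). Replicate 2 of shRNA3T read 7.64 for Sgk1, against 8.63 to 9.27 on the other arrays of the group. By the adjusted p 0 genes of the list rose and 4 fell in 4-18, and 2 rose and 2 fell in shRNA3T, beside 24.1% and 12.2% of all genes that passed. Under the other scalings 4 fell in 4-18 each time and 0 to 2 rose, and in shRNA3T the deposited table left 0. In 3-44 none passed by limma (3 at an unadjusted p under 0.05), though 1 fell with cyclic loess and 1 and 2 rose with the processed signals, and the median over the list was 0.07, against -0.39 in 4-18 and 0.22 in shRNA3T. These values stand beside those of the clock genes, and their part in the results for Dbp, Nr1d1 and Cry1 was not tested.

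**Figure D5:**
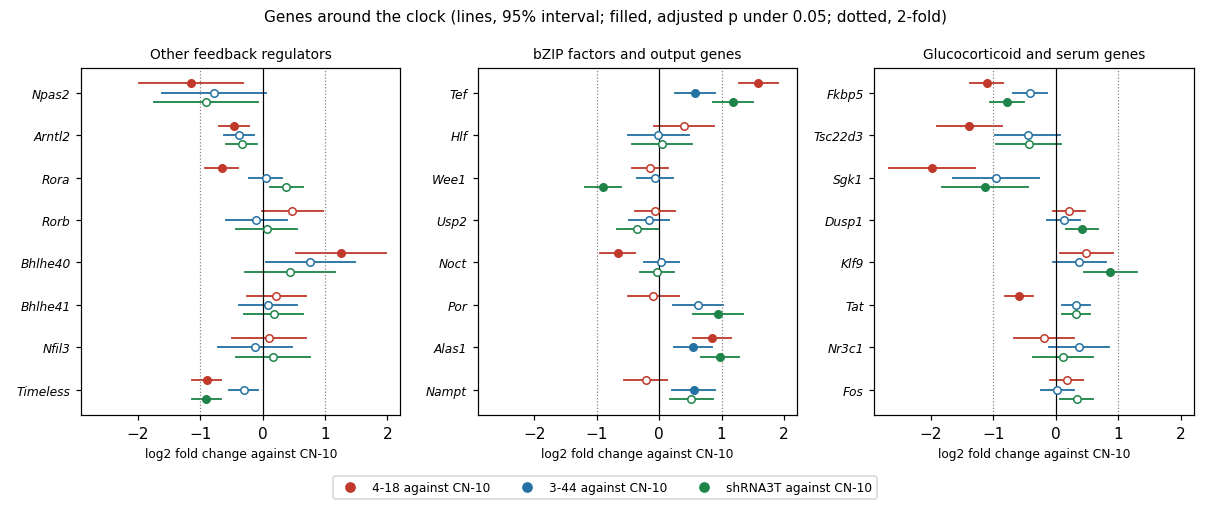
Log2 fold changes against CN-10 for the other feedback regulators, the output genes and the glucocorticoid and serum genes, with 95% intervals from limma, filled where the adjusted p is under 0.05. Tef lies at 1.59 in 4-18 and 1.18 in shRNA3T, and Sgk1, Tsc22d3 and Fkbp5 lie at or below -1.11 in 4-18.

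The genes with the pattern most like Dbp were sought among 15550 genes that all 4 arrays of some group detected well above background. They were ranked by the root mean square difference of the 16 array values, each gene centred on its own mean. The nearest were Nr0b2, the small heterodimer partner (0.155), Acadm, a dehydrogenase of fatty acid oxidation (0.182), and Ulk1, a kinase of autophagy (0.184). Their log2 fold changes were 1.25, 0.74 and 0.94 for Nr0b2 in 4-18, 3-44 and shRNA3T, 1.42, 0.86 and 1.11 for Acadm, and 1.36, 0.57 and 1.07 for Ulk1. The nearest to Nr1d1 were Map3k12, a mixed-lineage kinase (0.141), Zfp394, a zinc finger gene (0.142), and RGD1308772 (0.145). For Map3k12 the log2 fold changes were 0.70, -0.02 and 0.60. Only the gene being matched was left out of its own search, so other members could have been found. All these values come from the same 16 arrays.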

How the data were processed

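Gene expression was measured in 16 H35 cultures on one-color Agilent 4x44K rat arrays from 200 ng of total RNA. The authors ran Feature Extraction 10.7.3.1 on the scans (version in the file headers), and the deposited intensity values per spot are linear and not normalized. The deposited series table had lost its decimal points. Once these were put back it equalled log2 of the median signal corrected by normexp, unscaled, to within 4e-11.

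With limma 3.58.1 (R 4.3.3), normexp (offset 50) was applied to mean signal and local background, 1377 control spots per array were left out, log2 values of the 42877 gene spots were quantile normalized, outlier spots were set aside and spots of a probe averaged. For Per2, 7 of its spot readings were set aside, and every member kept a value on every array. One linear model held all 16 arrays, with a mean for each group (lmFit, eBayes), with Benjamini-Hochberg adjustment over all probes. A call needed 2-fold and an adjusted p under 0.05. Exact permutation tests of single values were two-sided. The steps were tested on simulated data. Fold changes are on the log2 intensity scale. The number of arrays limits the precision.

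The members and lists were chosen with earlier results of these data known. Named are all members, list genes called against CN-10 (up to 4 per list) and the 3 nearest genes by pattern for the 2 members with the widest range of group means. Other list genes are given as counts, apart from a few said in the text to be named after their values were seen. All 16 member probes matched RefSeq accessions. Probe positions are those of the array files (rn4); exons and introns are not stated because no annotation of that build was used. Promoters come from RefSeq, GRCr8. Alternatives covered scaling, background correction, filters, limits, weights, the replicate block, probes and leaving out arrays. Not all results for list genes are reported here.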

Additional observations from a re-analysis of the deposited data

Results flagged for a closer look

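Of 40 sets of 4 arrays (10 members in 4 groups), 4 held an array that stood far from the other 3 by Dixon's criterion, which chance meets in about 1 in 20 sets. Clock in 4-18 read 7.42 on replicate 2, against 7.93 to 7.95 on the others. Cry1 in 4-18 read 11.46 on replicate 4, against 10.51 to 10.59. Cry1 in 3-44 read 11.80 on replicate 1, against 11.29 to 11.35. Nr1d1 in shRNA3T read 9.41 on replicate 1, against 8.88 to 8.93.

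Among 30 tests of members between silenced groups, 9 passed at an adjusted p under 0.05 in limma. Between 4-18 and 3-44 the log2 differences were -0.66 for Cry1, 0.23 for Cry2, 0.95 for Nr1d1, -0.38 for Nr1d2 and 0.51 for Dbp. Between 4-18 and shRNA3T they were -0.45 for Per2, 0.26 for Cry2 and -0.37 for Nr1d2. Between 3-44 and shRNA3T Nr1d1 differed by -0.75.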

How the results depend on the processing

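The number of members called in 4-18 against CN-10 was 1, and became 2 with processed signals scaled to the 75th percentile, with cyclic loess and with quantile-normalized processed signals (Nr1d1 joining Dbp each time), and 3 with a fold limit of 1.5 or none (Cry1, Nr1d1 and Dbp). With the deposited series values it stayed at 1, but Cry1 (-1.65) was called there in place of Dbp (0.78). In 3-44 it became 0 with cyclic loess, the deposited series values and array weights, and 2 with no fold limit (Cry2 and Dbp). In shRNA3T it became 2 with both treatments of the processed signals and with a fold limit of 1.5, and 3 with no fold limit. Between 4-18 and 3-44 the count of 0 became 1 with both treatments of the processed signals (Nr1d1) and with the deposited series values (Cry1), 2 with a fold limit of 1.5 and 5 with none. Between 4-18 and shRNA3T it became 2 with the deposited series values (Arntl and Cry1) and 3 with no fold limit, and between 3-44 and shRNA3T 1 with a fold limit of 1.5 or none (Nr1d1). The causes were not tested. Leaving out 1 array at a time gave 1 to 3 members in 4-18, 0 to 1 in 3-44, 1 to 1 in shRNA3T, 0 to 1 between 4-18 and 3-44 and 0 to 0 in the other pairs. Cry1 and Nr1d1 in 4-18 were the values at the limit, Cry1 at -1.03 without CN-10 replicate 4 and Nr1d1 at 1.02 without CN-10 replicate 2, and between 4-18 and 3-44 Nr1d1 at 1.03 without 3-44 replicate 1 and 1.12 without 4-18 replicate 4. Scaling to the 75th percentile moved the median of all genes by 0.19 in 4-18 and -0.23 in shRNA3T, and the deposited series values by 0.13 in 4-18. Over all genes 687 were called higher and 929 lower in 4-18 against CN-10, but 218 and 2812 with the deposited values, which are not scaled between arrays, and the 75th percentile of the processed signal was 1610 to 1880 on the 4-18 arrays against 2630 to 3550 on those of CN-10. The same values gave 209 higher and 2173 lower against 3-44 (552 and 757 before) and 137 and 2549 against shRNA3T (489 and 709), where scaling to the 75th percentile gave 1785 and 1052, and 3322 and 1080. In 3-44 against CN-10, 180 and 207 became 226 and 541 with that scaling and 57 and 133 with the deposited values. In shRNA3T 315 and 313 became 478 and 765 with that scaling and 605 and 517 with quantile-normalized processed signals. Between 3-44 and shRNA3T 248 and 310 became 101 and 225 with the deposited values.

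Every difference from CN-10 that passed for a member also passed when any 1 array was left out. No difference of Dbp from CN-10 changed sign in any alternative, while between silenced groups the deposited series values turned Dbp to -0.12 (4-18 against 3-44) and -0.38 (4-18 against shRNA3T). With the replicate number as a block, the counts of called members stayed at 1, 1, 1, 0, 0 and 0, Dbp kept 1.51, 1.00 and 1.18, and the members past the adjusted p alone went from 3 to 5 between 4-18 and shRNA3T (Arntl at adjusted p 0.0409 and Dbp at 0.0137 added) and stayed at 3, 2, 3, 5 and 1 elsewhere. Array weights raised that count in shRNA3T against CN-10 from 3 to 6 (Per2, Cry1 and Nr1d2 added) and between 4-18 and shRNA3T from 3 to 5 (Clock and Dbp added), and the deposited series values lowered it in 3-44 from 2 to 0. Between 4-18 and 3-44 it fell from 5 to 1 with either processed signal, 2 with the arrays of the comparison alone and 3 with the deposited values, and between 4-18 and shRNA3T from 3 to 1 with quantile-normalized processed signals, while leaving out dim probes gave 5. Between 3-44 and shRNA3T it went from 1 to 2 with either processed signal, with outlier spots kept and with array weights (Per2 added). Same-numbered arrays correlated at -0.11 to 0.44 in their deviations from the group means, with 12 of 24 pairs above 0.1 (median 0.11). Of the differently numbered pairs 12 of 72 were above 0.1 (median -0.03). Pairs of arrays numbered 1 all lay between 0.18 and 0.44, and 7 of 16 arrays correlated best with their own number. The main fit did not use the numbers to pair the samples, and the block above is the alternative that did. The slide as a block was not run, since each group lay on 1 slide.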
